A study of Mus musculus with 4 samples.

Results

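Liver endothelial cells were examined through 10 of their marker genes, Stab1, Stab2, Lyve1, Pecam1, Cdh5, Kdr, Tek, Gata4, Eng and Clec4g, which were chosen by name and located in the GENCODE vM21 annotation of GRCm38. They are 10 of 21938 protein-coding genes and of 55413 annotated genes on chromosomes 1 to 19, X and Y. Every peak of the 4 deposited lists was described that lay in one of these genes or within 10 kb of its transcription start site (TSS), the 5′ end of the gene record. Their number was 33, of which 5 were ATACseq peaks and 28 were H2A.Z peaks.

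ATACseq, in which the Tn5 transposase cuts accessible DNA, and ChIPseq for the histone variant H2A.Z were each applied to whole liver of WT and of Uhrf1hepKO mice, with a single liver of each genotype used for both assays. The mice were C57Bl/6 males of 8 to 12 weeks on a normal diet, and livers were collected before noon. The WT liver was Uhrf1-fl/fl, so it carried the floxed alleles too, and the Uhrf1hepKO liver was Uhrf1-fl/fl;Alb:Cre. The Albumin promoter drives Cre in hepatocytes, so endothelial cells of the Uhrf1hepKO liver should keep their Uhrf1. The series has 4 libraries, 1 per assay and genotype, so replicate error is unknown and nothing was tested for significance. Shares carry Wilson 95% intervals, which describe counting error alone. The lists hold no read coverage of Uhrf1, so its deletion was not checked here.

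The liver sinusoid is lined by fenestrated endothelial cells that clear waste molecules from the blood through scavenger and lectin receptors, and that signal to the hepatocytes beside them. Endothelial cells of all vessels share junction proteins and receptors for vascular growth factors and angiopoietins. Accessible DNA marks active promoters and enhancers, and nucleosomes with H2A.Z often flank both. In whole liver, which is mostly hepatocytes, a peak at an endothelial gene can come from endothelial nuclei or from any other cell, and the number of nuclei of a type and the signal per nucleus cannot be told apart.

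On these chromosomes there were 10582 (WT) and 10764 (Uhrf1hepKO) ATACseq peaks, and 51450 and 47135 H2A.Z peaks. Each peak has a fold enrichment over the local background. Folds are not scaled between libraries, so each is given with its percentile within its own list. In the H2A.Z lists 94.1% (WT) and 91.7% (Uhrf1hepKO) of folds were whole multiples of an even step, within 0.01 of a step. These steps place the usual background at 3.10 (WT) and 3.30 (Uhrf1hepKO) reads per base and give the number of reads at the summit of a peak. The H2A.Z peaks of the marker genes had 15 to 40 such reads. Where no peak is listed, none could be detected at this depth.

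The shares of marker genes with a peak were below those of all protein-coding genes, but within counting error. An H2A.Z peak lay in the gene or within 10 kb of the TSS at 5 of 10 genes in each liver (50%, interval 23.7 to 76.3%), and these were the same 5, Stab2, Lyve1, Pecam1, Tek and Gata4. Of all protein-coding genes, 64.3% had one in WT and 62.4% in Uhrf1hepKO. An ATACseq peak was found at 2 of 10 in each liver (20%, interval 5.67 to 51.0%), Stab2 and Pecam1 in WT and Stab2 and Tek in Uhrf1hepKO, beside 39.2% and 37.7% of all protein-coding genes. Stab1, Cdh5, Kdr, Eng and Clec4g had no peak in any list. The intervals of all 4 shares hold the share of all genes.

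Most of these peaks lay far from the TSS of the gene record. Within 10 kb of it, H2A.Z was found at Lyve1 alone in both livers (10%, interval 1.79 to 40.4%), where all protein-coding genes had 58.4% in WT and 56.5% in Uhrf1hepKO. This count depends on the start used. From any annotated transcript start it was 3 in WT (Stab2, Lyve1 and Gata4), beside 61.8% of all protein-coding genes. In Uhrf1hepKO it was 4 (these and Stab1, through a peak outside that gene at the TSS of Nt5dc2), beside 59.9%. No marker gene had an ATACseq peak there in either liver, and 0 of 10 allows a share of up to 30.0% if the limit is set at 3 counts, or 27.8% by the Wilson interval, while the shares of all genes were 34.4% and 32.4%. Of the 33 peaks, 29 lay inside the gene but over no exon of any of its transcripts, 3 over the 3′ UTR of Lyve1 and 1 over the 5′ UTR of Gata4. Stab2 alone held 19 of them.

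**Figure D1:**
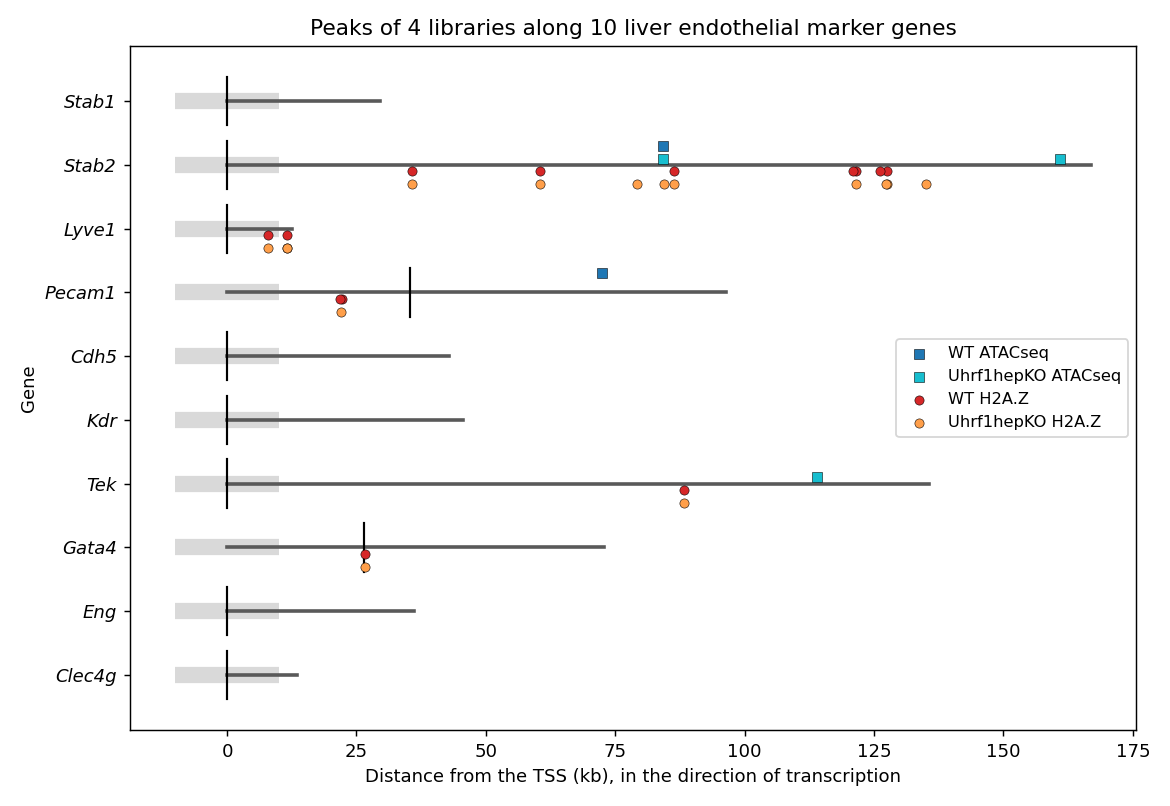
Position of each peak as its distance from the TSS in kb (x axis, in the direction of transcription) for the 10 marker genes (y axis). Dark lines are the genes, grey bars the 10 kb upstream and downstream of the TSS, black ticks the start of the principal transcript, squares ATACseq peaks and circles H2A.Z peaks. Stab2 held 19 of the 33 peaks, Lyve1 alone has peaks within a grey bar, and 5 genes are empty.

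Stab2 (ENSMUSG00000035459) encodes stabilin-2, the scavenger receptor through which sinusoidal endothelial cells take up hyaluronan. Its 166.828 kb lie on chromosome 10 (86841198 to 87008025, minus strand), and it is the longest of the 10. It was the only marker gene with an ATACseq peak in both livers. The WT peak, from 86923663 to 86923934, had a fold of 5.49 at percentile 81.4 and a q-value of 3.59e-06. The Uhrf1hepKO peak, from 86923735 to 86923871, lay wholly within it with a fold of 5.02 at percentile 78.5. This intronic site is 84227 bp downstream of the TSS in WT, measured to the centre of the peak. Its sequence on the plus strand is given from the RefSeq FASTA of GRCm38 because it is the single accessible site found in both livers, with the 137 bases of the Uhrf1hepKO peak in capitals.
Stab2 ATACseq peak, chr10:86923663-86923934: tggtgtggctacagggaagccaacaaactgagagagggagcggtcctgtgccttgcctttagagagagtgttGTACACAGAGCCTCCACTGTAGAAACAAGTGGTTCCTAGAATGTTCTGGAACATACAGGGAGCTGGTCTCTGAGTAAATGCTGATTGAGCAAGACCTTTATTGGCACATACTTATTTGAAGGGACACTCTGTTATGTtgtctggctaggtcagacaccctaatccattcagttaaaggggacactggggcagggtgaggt

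The site held 1 CpG in 272 bp, and none of its 32-mers recurred elsewhere in the genome. A further ATACseq peak in Uhrf1hepKO, from 86847055 to 86847327 near the 3′ end of Stab2, was weak, with a fold of 3.37 at percentile 11.0 and a q-value of 0.0746. It lies within the antisense gene Gm16268 as well, and a peak has no strand.

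H2A.Z formed 7 peaks along the introns of Stab2 in WT and 9 in Uhrf1hepKO, and 5 of the 7 WT peaks overlapped a Uhrf1hepKO peak. The 3 strongest were the same in both livers. The peak from 86947458 to 86947605 had 40 reads at its summit in WT (fold 9.99, percentile 95.7) and 34 in Uhrf1hepKO (fold 8.13, percentile 86.2). The peak from 86886448 to 86886585 had 38 reads in WT (fold 9.51, percentile 94.3) and 32 in Uhrf1hepKO (fold 7.67, percentile 82.7). At the widest one, from 86972192 to 86972622 in WT, the order was the other way, with 30 reads in WT (fold 7.56, percentile 83.9) and 40 in Uhrf1hepKO (fold 9.53, percentile 93.2). This peak covers position 86972216, the start of Gm16271, an antisense gene on the plus strand that runs from inside Stab2 past its TSS to 87028015. Without strand, the peak cannot be assigned to Stab2 or to Gm16271. The 3 strongest peaks differed in distance from the nearest annotated Stab2 transcript start, where minus is upstream. For the peak from 86886448 the summit lay at -775 bp in WT and -760 bp in Uhrf1hepKO, so it was near a start. For the peak from 86947458 it lay at -6893 and -6891 bp, and for the widest at -31620 and -31630 bp.

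The remaining Stab2 peaks were lower, with 15 to 20 reads at the summit in each liver. They lay at percentiles 14.1 to 48.1 in WT and 8.09 to 36.8 in Uhrf1hepKO. Those from 86881841 to 86882015 and from 86886959 to 86887062 were called in WT alone, and 4 were called in Uhrf1hepKO alone. One of these 4, from 86923550 to 86923697, was 38 bp from the Uhrf1hepKO ATACseq peak of the shared site and had 20 reads. The WT list had no H2A.Z peak nearer than 1931 bp to this site.

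Letters of transcription factor motifs were searched on both strands in 201 bp around each summit or centre, as AGATAA for GATA factors, CAGGAA for ETS factors, TGTTTAC for FOX factors and TGANTCA for AP-1. A match is a run of letters and not a shown binding site. The ETS letters occurred in 3 of 13 WT and 6 of 15 Uhrf1hepKO H2A.Z peaks of the marker genes, all of them in Stab2, and in 22.3% and 22.7% of all H2A.Z peaks. The 2 strongest WT peaks and the weak Uhrf1hepKO peak from 86928830 to 86929017 (15 reads, percentile 8.09) are printed to show these letters in capitals, CAGGAA or its reverse complement TTCCTG. In the last, FOX letters overlap them.
Stab2 H2A.Z peak, WT, chr10:86947458-86947605: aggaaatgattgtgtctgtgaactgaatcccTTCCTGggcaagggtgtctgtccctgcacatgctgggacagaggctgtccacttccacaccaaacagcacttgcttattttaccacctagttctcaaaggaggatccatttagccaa
Stab2 H2A.Z peak, WT, chr10:86886448-86886585: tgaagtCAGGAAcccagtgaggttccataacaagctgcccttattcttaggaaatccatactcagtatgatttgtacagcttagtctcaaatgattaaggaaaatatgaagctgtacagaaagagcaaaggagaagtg
Stab2 H2A.Z peak, Uhrf1hepKO, chr10:86928830-86929017: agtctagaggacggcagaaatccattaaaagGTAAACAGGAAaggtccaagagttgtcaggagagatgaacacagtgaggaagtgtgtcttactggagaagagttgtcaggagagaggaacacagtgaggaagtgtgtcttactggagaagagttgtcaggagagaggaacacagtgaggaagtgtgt

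FOX letters were present in 3.65% of all Uhrf1hepKO H2A.Z peaks and in no other peak of the marker genes. In this peak, 69.4% of the 32-mers recurred in the genome, with up to 7 copies, so reads there may have several placements. The Stab2 ATACseq peaks held none of the 4 motifs.

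Stab1 (ENSMUSG00000042286), on chromosome 14 from 31139013 to 31168641, encodes stabilin-1, the paralogue of stabilin-2. It had no peak. The nearest H2A.Z peaks were 38.3 kb upstream in WT, closest to the TSS of Tnnc1, and 37.9 kb from the Stab1 TSS on the downstream side in Uhrf1hepKO, at the TSS of Nt5dc2. The nearest ATACseq peaks were 39.5 kb away in WT, at the TSS of Smim4, and 23.4 kb upstream in Uhrf1hepKO. The paralogues thus differed in called peaks, 19 in Stab2 and 0 in Stab1, although Stab2 is also the longer gene at 166.828 against 29.629 kb.

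Lyve1 (ENSMUSG00000030787) encodes a hyaluronan receptor of sinusoidal and lymphatic endothelium, and its gene occupies positions 110850607 to 110863239 of chromosome 7, minus strand. It had no ATACseq peak. H2A.Z marked an intron 7943 bp downstream of the TSS in WT, from 110855127 to 110855518, with 27 reads at the summit and a fold of 6.82 (percentile 77.2). In Uhrf1hepKO the peak at this site was narrower, 200 against 392 bp, with 26 reads and a fold of 6.27 (percentile 66.8). Its sequence is printed as the only site within 10 kb of a marker gene's TSS, with the CpG in capitals.
Lyve1 H2A.Z peak, Uhrf1hepKO, chr7:110855162-110855361: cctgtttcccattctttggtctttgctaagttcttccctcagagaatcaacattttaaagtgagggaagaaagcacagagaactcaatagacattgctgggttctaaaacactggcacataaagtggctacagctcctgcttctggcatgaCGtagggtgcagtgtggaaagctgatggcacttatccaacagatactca

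The 3′ UTR of Lyve1 held H2A.Z in both livers as well. The WT peak, from 110851525 to 110851853, had 18 reads, and the Uhrf1hepKO list had a pair of peaks at 110851465 to 110851649 and 110851728 to 110851832 with 19 reads each. All 3 lie closer to the TSS of Rnf141, at 7128 to 7298 bp, than to that of Lyve1.

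Clec4g (ENSMUSG00000074491), on chromosome 8 from 3707064 to 3720651, encodes LSECtin, a lectin of liver and lymph node sinusoidal endothelium. It had no peak. The nearest H2A.Z peak was 43.7 kb from the TSS in both livers, at Trappc5. The nearest ATACseq peak, 99.1 kb away at the TSS of Xab2, was among the strongest of its list in both (percentiles 99.1 and 98.5).

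Gata4 (ENSMUSG00000021944) encodes the transcription factor that directs the sinusoidal fate of liver endothelium, and is also made by stellate cells and, at a lower level, by hepatocytes. Its record on chromosome 14, from 63198922 to 63271692, starts 26.4 kb upstream of its principal transcript, which begins at 63245248 on the minus strand. No ATACseq peak was found. H2A.Z lay just inside the principal start in both livers. The WT summit was 262 bp and the Uhrf1hepKO summit 109 bp downstream of it, with 19 reads (fold 4.87, percentile 41.6) and 21 reads (fold 5.11, percentile 43.2). The peaks overlapped, from 63244925 to 63245020 in WT and from 63244977 to 63245209 in Uhrf1hepKO. The Uhrf1hepKO peak reached over the 5′ UTR and held 14 CpGs. The WT peak, over the intron, is printed with its 2 CpGs in capitals because no other marker gene had H2A.Z this near to the start of its principal transcript.
Gata4 H2A.Z peak, WT, chr14:63244925-63245020: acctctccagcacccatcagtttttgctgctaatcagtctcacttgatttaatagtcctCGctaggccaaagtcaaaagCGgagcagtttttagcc

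Measured from the start of the principal transcript, Lyve1 and Gata4 had H2A.Z within 10 kb in both livers, 2 of 10 genes, while the share of all protein-coding genes was 58.7% in WT and 56.9% in Uhrf1hepKO. ATACseq stayed at 0 of 10 in both. This measure was added after the data were seen.

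Pecam1 (ENSMUSG00000020717) encodes CD31, an adhesion molecule of endothelial junctions that platelets and leukocytes also carry. It lies on chromosome 11 from 106654217 to 106750628, and its principal transcript starts at 106715259. A weak ATACseq peak was called in WT alone, in an intron from 106678068 to 106678215, with a fold of 3.85 (percentile 27.2) and a q-value of 0.0174. The Uhrf1hepKO list had no peak within 110224 bp of it. H2A.Z lay upstream of the principal start, in an intron of longer transcripts. WT had a pair of peaks, from 106728304 to 106728417 with 21 reads and from 106728547 to 106728811 with 23, and Uhrf1hepKO had 1 peak across both, from 106728306 to 106728794, with 21. The first WT peak opens on a run of CT repeats, in capitals, and is printed because reads there may have several placements.
Pecam1 H2A.Z peak, WT, chr11:106728304-106728417: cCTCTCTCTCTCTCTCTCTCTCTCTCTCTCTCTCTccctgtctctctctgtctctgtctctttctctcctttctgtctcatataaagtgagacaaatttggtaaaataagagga

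In this peak 39.8% of the 32-mers recurred in the genome, whereas none did in the second WT peak.

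Cdh5 (ENSMUSG00000031871) encodes VE-cadherin, the adherens junction protein that is found in nearly all endothelium and few other cells. It lies on chromosome 8 from 104101625 to 104144511 and had no peak. The nearest H2A.Z peak was upstream in both livers, from 104077143 to 104077278 in WT (fold 5.36, percentile 54.0) and from 104077140 to 104077297 in Uhrf1hepKO (fold 5.58, percentile 54.3), 24.3 kb from the TSS. No protein-coding TSS was nearer to these peaks than that of Cdh5. The nearest ATACseq peak was 282.6 kb away in WT, the farthest of any marker gene, and 72.6 kb away in Uhrf1hepKO.

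Kdr (ENSMUSG00000062960) encodes VEGFR2, the main signalling receptor for VEGF-A, on chromosome 5 from 75932827 to 75978458. It had no peak, although 61 CpGs lie within 500 bp of its TSS, the most of the 10 genes at the start of the gene record. An H2A.Z peak was found 45.0 kb upstream in WT, from 76023428 to 76023528 (fold 4.63, percentile 34.6). An overlapping one lay 44.9 kb upstream in Uhrf1hepKO, from 76023357 to 76023492 (fold 3.58, percentile 5.95). Kdr was the nearest protein-coding gene to both. The nearest ATACseq peaks were 125 kb (WT) and 162 kb (Uhrf1hepKO) from the TSS.

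Tek (ENSMUSG00000006386) encodes TIE2, the receptor for angiopoietins, and spans 135.688 kb on the plus strand of chromosome 4 from 94739289. H2A.Z marked the same intronic site in both livers, with summits 88203 bp (WT) and 88207 bp (Uhrf1hepKO) downstream of the TSS. The WT peak, from 94827422 to 94827565, had 28 reads (fold 7.07, percentile 79.7) and the Uhrf1hepKO peak, from 94827432 to 94827545, had 25 (fold 6.04, percentile 63.1). Both hold TGAGTCA, a match to the AP-1 letters TGANTCA, which occur in 5.82% of all H2A.Z peaks in each liver. Among the H2A.Z peaks of the marker genes, 1 of 13 in WT and 2 of 15 in Uhrf1hepKO had AP-1 letters. The match outside Tek was at the Lyve1 3′ UTR peak from 110851465 to 110851649, in Uhrf1hepKO. The WT Tek peak is printed with TGAGTCA in capitals, as the highest WT H2A.Z fold outside Stab2.
Tek H2A.Z peak, WT, chr4:94827422-94827565: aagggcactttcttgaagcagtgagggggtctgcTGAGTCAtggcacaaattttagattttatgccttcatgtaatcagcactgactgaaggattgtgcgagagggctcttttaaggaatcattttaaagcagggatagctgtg

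No 32-mer of this peak recurred. An ATACseq peak was called in Tek in Uhrf1hepKO alone, from 94853118 to 94853293, and was weak (fold 3.55, percentile 23.3, q-value 0.0340). It held AGATAA, the GATA letters, which are found in 5.53% of all Uhrf1hepKO ATACseq peaks, and 16.6% of its 32-mers recurred. The nearest WT ATACseq peak was 125549 bp away.

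Eng (ENSMUSG00000026814) encodes endoglin, a TGF-β and BMP9 co-receptor of endothelium, on chromosome 2 from 32646595 to 32682669. It had no peak. Overlapping H2A.Z peaks lay 35.6 kb upstream in both livers, with a fold of 6.82 in WT (percentile 77.2) and 7.67 in Uhrf1hepKO (percentile 82.7), nearest to the TSS of Ak1. The nearest ATACseq peaks were 37.7 kb (WT) and 75.7 kb (Uhrf1hepKO) from the Eng TSS.

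Across the 10 genes the median distance from the TSS to the nearest H2A.Z peak was 23.6 kb in WT and 30.0 kb in Uhrf1hepKO, and all 10 lay farther than the median of all protein-coding genes, 3.08 and 4.29 kb. The 10 of 10 holds from the start of the gene record. From its principal start, the Gata4 summits lay at 262 bp (WT) and 109 bp (Uhrf1hepKO), under both medians. For ATACseq the medians were 96.3 kb in WT and 63.5 kb in Uhrf1hepKO, beside 32.1 and 34.9 kb for all genes, and 9 and 7 of the 10 lay farther. Distances varied widely among the marker genes, from 7.72 to 45.0 kb for H2A.Z and from 24.8 to 282.6 kb for ATACseq in WT. Long distances were not particular to them. Medians of the other gene lists, described below, ranged for H2A.Z from 10.11 to 93.35 kb (WT) and 11.56 to 66.78 kb (Uhrf1hepKO). Hepatocyte genes had 26.08 and 20.24 kb, and the other endothelial genes were nearer, at 10.31 and 16.92 kb. For ATACseq the ranges were 31.68 to 97.27 kb (WT) and 28.48 to 110.9 kb (Uhrf1hepKO).

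**Figure D2:**
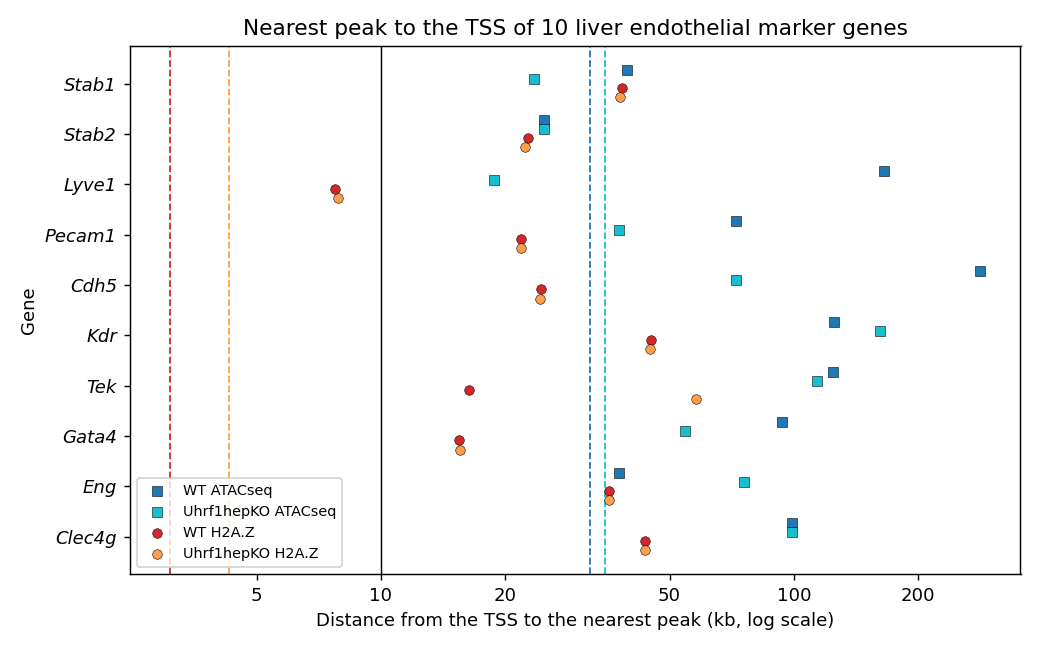
Distance in kb (x axis, log scale) from the TSS, taken as the start of the gene record, to the nearest peak of each list for the 10 marker genes (y axis). Dashed lines are the medians of all 21938 protein-coding genes in the colour of each list, and the black line is 10 kb. The H2A.Z circles of all 10 genes lie to the right of the 3.08 and 4.29 kb medians, and only those of Lyve1 lie under 10 kb.

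Counted along the gene bodies, H2A.Z was closer to the genome as a whole. The marker genes are long, with a median of 44.26 kb beside 17.43 kb for all protein-coding genes. They held 1.99 H2A.Z peaks per 100 kb in WT and 2.30 in Uhrf1hepKO, and all genes held 2.24 and 2.01. Without Stab2 the density was 1.24 in both livers. ATACseq peaks were sparser, 0.307 (WT) and 0.460 (Uhrf1hepKO) per 100 kb, beside 0.716 and 0.691 for all genes.

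The WT and Uhrf1hepKO peaks were compared by position. Of the 13 WT H2A.Z peaks of the marker genes, 11 overlapped a Uhrf1hepKO peak (84.6%, interval 57.8 to 95.7%), and of the 15 Uhrf1hepKO peaks 11 overlapped a WT peak (73.3%, interval 48.1 to 89.1%). Over the whole lists these shares were 70.0% and 75.6%. In ATACseq, 1 of 2 WT and 1 of 3 Uhrf1hepKO peaks were shared, beside 61.3% and 60.3% of all peaks. No ATACseq peak of a marker gene overlapped an H2A.Z peak of the same liver, 0 of 2 in WT and 0 of 3 in Uhrf1hepKO, where the whole lists had 35.3% and 27.2%. With so few ATACseq peaks none of these shares can be told from that of its list. Peaks called in 1 liver alone were found at Stab2, Pecam1 and Tek, each at or below percentile 48.1 of its list. With 1 library per genotype, the genotype, the mouse and the depth cannot be told apart.

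**Figure D3:**
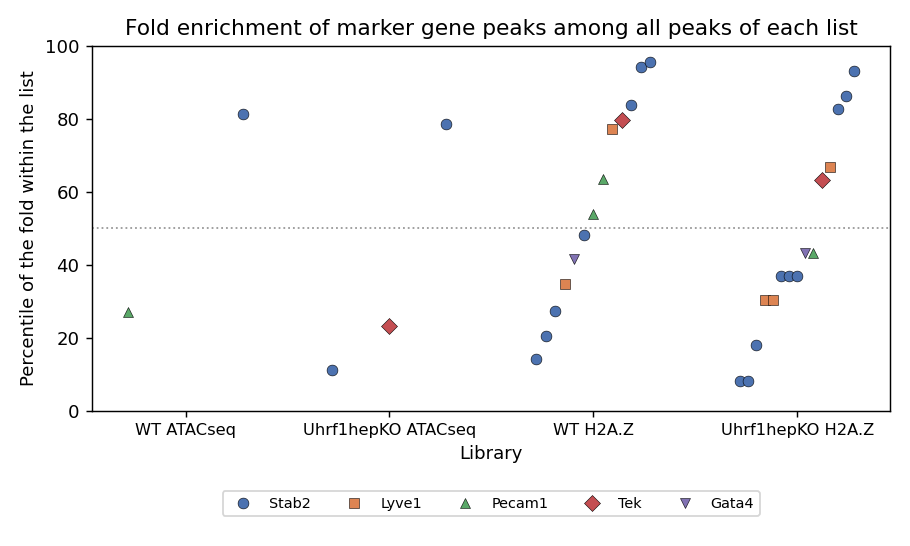
Percentile of the fold of each marker gene peak among all peaks of its list (y axis) for the 4 libraries (x axis), with points spread sideways for legibility and the list median as a dotted line. H2A.Z peaks of Stab2 range from percentile 14.1 to 95.7 in WT and from 8.09 to 93.2 in Uhrf1hepKO.

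Most marker gene promoters held fewer CpGs than the median protein-coding gene. Within 500 bp of the TSS the marker genes held 7 (Clec4g) to 61 (Kdr), with a median of 16. All protein-coding genes had a median of 41. Other lists, described below, had low medians too, 16.5 (sinusoidal), 20 (endothelium in general), 13 (hepatocyte) and 6.5 (Kupffer cell). Cholangiocyte genes had 31, and endothelial transcription factors and stellate cell genes had 52 each. The principal start of Gata4 held 63, and its gene record start 12. Among the 11888 protein-coding genes with 7 to 61 CpGs, a range set after the data were seen, the shares with a peak in this window were 30.3% (WT) and 29.1% (Uhrf1hepKO) for ATACseq and 57.2% and 55.0% for H2A.Z. The top of this range is set by Kdr alone, as Eng is next with 35, so these genes are not matched to the marker genes in CpG content. The part of CpG content in the count of the marker genes was not tested.

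Other endothelial genes had a higher share with H2A.Z near the TSS than the 10 marker genes, within counting error. From lists of 14 sinusoidal genes, 16 genes of endothelium in general and 14 endothelial transcription factors, 44 in all, H2A.Z lay within 10 kb of the TSS at 22 in WT (50%, interval 35.8 to 64.2%) and 17 in Uhrf1hepKO (38.6%, interval 25.7 to 53.4%). An ATACseq peak was found at 7 in WT (15.9%, interval 7.93 to 29.4%) and 4 in Uhrf1hepKO (9.09%, interval 3.59 to 21.2%). For all protein-coding genes the shares were 34.4% (WT) and 32.4% (Uhrf1hepKO) for ATACseq, and 58.4% and 56.5% for H2A.Z. Both ATACseq intervals and the Uhrf1hepKO H2A.Z interval lay below these shares, while the WT H2A.Z interval held its share. The intervals of these 44 genes overlapped those of the 10 marker genes in all 4 lists.

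Among the sinusoidal genes, Dnase1l3, a secreted DNase, had the highest H2A.Z fold of all the listed genes, 2903 bp upstream of its TSS, with a fold of 13.4 in WT (percentile 99.7) and 14.4 in Uhrf1hepKO (percentile 99.8). It was followed in WT by Oit3 and Bmp2, the latter a BMP ligand that induces hepcidin in hepatocytes, with 6.58 each. The ATACseq peaks at Bmp6 (3.54) and Dnase1l3 (3.52, at the TSS of Abhd6) were weak and in WT alone. Of the general endothelial genes, Calcrl, a receptor for adrenomedullin, had H2A.Z over its TSS in WT (fold 9.02), and the equal peak at Ramp2 lay at the TSS of Vps25. Esam, a junction protein, had both ATACseq (4.97 in WT, 4.08 in Uhrf1hepKO) and H2A.Z (7.80 and 6.51) inside the gene, the WT ATACseq peak at 2950 bp from the TSS. Cldn5, a tight junction protein, had a weak ATACseq peak 104 bp upstream of its TSS in WT (3.49).

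Among the transcription factors, Klf2, which responds to shear stress, had an ATACseq peak at its TSS in both livers (4.74 in WT, 5.82 in Uhrf1hepKO), as did Maf (4.23 and 4.13). Sox7 had one in WT (4.29). H2A.Z was highest at Nr2f2, Maf and Meis2, with 6.82 each in WT. Several of these factors are made by other liver cells too.

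Genes of other liver cells were counted in the same way, beside the shares of all genes given above (34.4% and 32.4% for ATACseq, 58.4% and 56.5% for H2A.Z). In the same window, ATACseq peaks were found at 0 of 10 hepatocyte genes in WT and 3 in Uhrf1hepKO, and H2A.Z peaks at 3 in each. Apoa1, Apob, Ahsg, Hnf4a and Cps1 had no peak there in any list, and Alb had only an ATACseq peak in Uhrf1hepKO (4.18). The window lies around the start of the gene record, and other transcript starts were not used for these lists. With the gene body added, ATACseq peaks were at 1 (WT) and 4 (Uhrf1hepKO) hepatocyte genes, beside 39.2% and 37.7% of all genes. H2A.Z peaks stayed at 3 in each, beside 64.3% and 62.4%. The highest WT H2A.Z folds were 7.07 at Fgb, where the peak was nearest to Plrg1, 6.82 at Ttr and 4.87 at Asgr1. Hepatocytes make up most of the tissue, and the intervals of the hepatocyte genes and of the 10 endothelial markers overlapped in all 4 lists.

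Of 30 genes of Kupffer cells, cholangiocytes and stellate cells, ATACseq peaks lay in this window at 3 in WT and 2 in Uhrf1hepKO, and H2A.Z peaks at 8 in each liver. For Kupffer cells these were Cd68, with 7.31 in WT but at the TSS of Eif4a1, and Mpeg1, with 6.58. Cholangiocyte genes had the highest shares for H2A.Z of these 3 lists, 40% in WT (interval 16.8 to 68.7%) and 50% in Uhrf1hepKO (interval 23.7 to 76.3%). These intervals overlapped those of the Kupffer and stellate cell genes in both livers. Among the cholangiocyte genes, Muc1 (9.26) and Spp1 (6.09) had H2A.Z, and Sox9 had the ATACseq peak (3.56). For stellate cells, Col3a1 (5.85) and Acta2 (5.61) had H2A.Z and Col1a1 had ATACseq (5.52 in WT, 3.93 in Uhrf1hepKO).

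**Figure D4:**
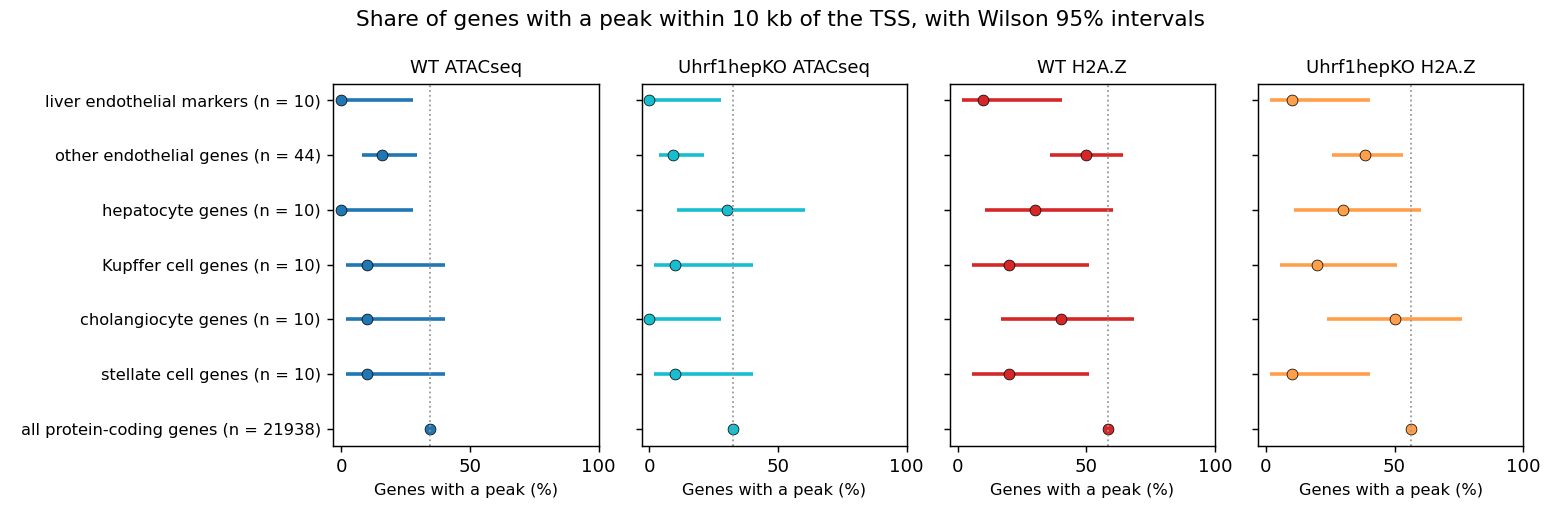
Percentage of genes that have a peak no farther than 10 kb from the TSS (x axis) for each gene list (y axis), 1 panel per library. Points are shares, bars are Wilson 95% intervals and the dotted line is the share of all 21938 protein-coding genes. The liver endothelial markers are at 0% in both ATACseq panels and at 10% in both H2A.Z panels.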

How the data were processed

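The libraries were made from whole WT and Uhrf1hepKO liver, from isolated nuclei for ATACseq and after micrococcal nuclease digestion for H2A.Z ChIPseq. Per the methods, the authors aligned reads with BWA-MEM to GRCm38.p4, used Picard (for ChIPseq also to remove duplicates) and called peaks per library with MACS2 at a p-value of 0.05, in broad mode for ATACseq. FastQC 0.11.5 and Trimmomatic are named in the submitters' processing notes. The MACS2 version, any control library, any shift of ATACseq reads and the treatment of reads with several placements are not given in the sources used here. Single-end reads but the paired-end option of MACS2 are described for ATACseq. In the deposited lists, the score is a display value, the fold is the ratio of pileup to local background, and p- and q-values are given as −log10. The deposited summit is another value, the distance in bp from the start of an H2A.Z peak. The highest q-value was 0.0997 in WT and 0.0993 in Uhrf1hepKO for ATACseq, and 0.0500 and 0.0489 for H2A.Z.

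Only chromosomes 1 to 19, X and Y were analysed, in 1-based GRCm38 positions. An overlap needed 1 bp. Distances in the lists of genes and peaks were measured from the TSS to the summit (H2A.Z) or centre (ATACseq), and nearest peaks to their nearest edge. Reads at the summit were derived from the fold steps of 0.244 (WT) and 0.232 (Uhrf1hepKO). Recurring 32-mers are those with more than 1 copy on these chromosomes, counting both strands. All 10 marker genes were named with every peak, and from each other list the 3 genes per assay whose WT peaks within 10 kb of the TSS had the highest folds, of which 1 is not reported here. The members and lists were chosen with earlier results of these data known. Windows, starts, peak thresholds, overlap rules and backgrounds were varied 1 at a time. Steps were tested on simulated data, where 400 of 400 overlaps, 400 of 400 distances and 200 of 200 genes with planted peaks were recovered. The software was Python 3.11.15 with pandas 2.3.3, numpy 2.4.6, matplotlib 3.10.9 and scipy 1.17.1.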

Additional observations from a re-analysis of the deposited data

How the results depend on the processing

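No paired analysis was possible because each group is 1 library and no test was made. With 1 library per condition the spread between mice is unknown, and sites below the calling limit are missing from the lists. The number of marker genes with a peak in the gene or within 10 kb of the TSS stayed at 5 for H2A.Z in WT except with peaks at or above the median fold (4). In Uhrf1hepKO it was 6 from any transcript start, where Stab1 was added through a peak outside that gene at the TSS of Nt5dc2. For ATACseq it went from 2 to 1 in each liver with peaks at or above the median fold, with q-values of 0.01 or less, or with peaks nearest to the gene's own TSS, which left Stab2. With the median fold, H2A.Z in Uhrf1hepKO went to 3 genes. Within 10 kb of the TSS, ATACseq stayed at 0 under all alternatives. H2A.Z there went from 1 gene in each liver to 0 with windows of 5 or 2 kb, to 2 from principal starts (added after the data were seen), and to 3 (WT) and 4 (Uhrf1hepKO) from any transcript start, where Stab2, Gata4 and, in Uhrf1hepKO, Stab1 were added. The shares of all protein-coding genes under the same rules were added after the data were seen. In WT and Uhrf1hepKO they were 30.2% and 27.9% for ATACseq and 52.8% and 51.0% for H2A.Z with 5 kb, 27.6% and 25.2%, and 48.2% and 46.5%, with 2 kb, and 37.6% and 35.7%, and 61.8% and 59.9%, from any transcript start. Over all annotated genes the shares were 21.2% and 20.2% for ATACseq and 39.3% and 37.9% for H2A.Z (WT and Uhrf1hepKO), and over genes in the CpG range of the marker genes 30.3%, 29.1%, 57.2% and 55.0%. With the median fold, shared H2A.Z peaks went from 11 to 5 in each direction. With gaps of up to 200 bp, Uhrf1hepKO ATACseq peaks with H2A.Z went from 0 to 1. With windows of 2 kb, the other endothelial genes had 4 (WT) and 2 (Uhrf1hepKO) with ATACseq and 10 and 9 with H2A.Z, the hepatocyte genes 1 in each liver with H2A.Z, and the other non-hepatocyte genes 1 in Uhrf1hepKO with ATACseq and 5 in each liver with H2A.Z. With 5 kb, other endothelial genes with H2A.Z in WT were 14, and other non-hepatocyte genes with ATACseq in Uhrf1hepKO were 1. With the median fold, ATACseq was found at 2 other endothelial genes in WT, 1 hepatocyte gene in Uhrf1hepKO, and 1 other non-hepatocyte gene in each liver.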
